A study of Mus musculus with 19 samples.

Results

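Skeletal muscle lies against the sciatic nerve, and its transcripts enter a nerve sample with any fibres left on the dissected tissue. The arrays compared here were taken from both ends of a ranking by Acta1, the gene of skeletal muscle alpha-actin: its 6 top arrays and its 6 bottom arrays, so 12 of the 19 sciatic nerve arrays of the study. They are called muscle-rich and muscle-poor below. Acta1 had 1 probe set with a single gene symbol, and its log2 intensity set the ranking. Because the arrays were chosen from the same values that are compared, differences between both ends are a description and carry no test.

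All mice were DBA/2J, an inbred strain, and each array held total RNA from the sciatic nerve of 1 mouse. Diabetic mice had received streptozotocin (STZ), which destroys insulin-producing cells, and treated mice rosiglitazone, an insulin-sensitising drug that activates PPAR gamma. The groups, with the prefix used for their arrays, were diabetic mice given rosiglitazone (DR, 5 arrays), diabetic mice given vehicle (DV, 5 arrays), control mice given rosiglitazone (CR, 5 arrays) and non-diabetic control mice given vehicle (CV, 4 arrays). The number in an array's name is the one in its title. The labels give no ages, doses or durations, and do not say how the nerves were cleaned.

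A skeletal muscle fibre is a long cell packed with sarcomeres, in which myosin thick filaments pull on actin thin filaments anchored at the Z disc. Calcium released from the sarcoplasmic reticulum binds troponin and lets the filaments slide, and calcium pumps end the contraction. Fast fibres rely mainly on glycogen and creatine phosphate, slow fibres on mitochondria, and each fibre type has its own myosin, troponin and calcium pump genes. Their transcripts are commonly read as markers of muscle fibres.

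Some arrays stood apart from the rest. The gap in log2 intensity between the 3' and 5' Gapdh controls, a measure of RNA integrity, widens in degraded RNA. It exceeded 1.37 in 3 arrays, namely DR716 and DV706 of the muscle-rich and DV707 of the muscle-poor arrays. In the other 16 it lay between 1.00 and 1.37. The same gap of the beta-actin controls had a median of 1.30 in muscle-rich and 0.80 in muscle-poor arrays. By that measure the muscle-rich DV708 and CR711, at 1.29 and 1.31, also lay above every array but those 3. The part of RNA integrity in the differences between both ends was not tested. Transcripts of sensory neuron cell bodies were low in 5 arrays, namely the muscle-rich DR716, DV706 and CR715 and the muscle-poor DV709 and DV707. Results are therefore also given with the ranking redone without those 3 arrays, and without those 5. Both steps bring arrays from the middle of the ranking into the ends, and the mean Acta1 difference between ends then was 5.12 and 4.08, against 6.64 with all arrays. In tissue, fewer muscle fibres and less RNA per fibre cannot be told apart. Array medians ran from 83.3 to 101.7 on the intensity scale.

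Acta1 ran in log2 intensity from 10.84 through a median of 12.17 to 13.27 in muscle-rich arrays, and from 4.67 through a median of 5.24 to 6.52 in muscle-poor arrays. The muscle-rich arrays were DR720 at 13.27, DR716 at 12.63, DV706 at 12.61, CR715 at 11.73, DV708 at 11.53 and CR711 at 10.84. The muscle-poor arrays were CV702 at 6.52, CR712 at 6.32, CV703 at 5.66, DV709 at 4.81, DV710 at 4.78 and DV707 at 4.67. At the upper limit CR711 was just inside and CV705, at 10.08, just outside. At the lower limit CV702 was just inside and DR719, at 8.14, just outside. The upper limit falls in a continuous series of values, while the lower one falls in a gap.

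The muscle-rich end held 2 DR, 2 DV, 2 CR and 0 CV arrays, and the muscle-poor end 0 DR, 3 DV, 1 CR and 2 CV arrays. Rosiglitazone-treated mice made up 4 of 6 muscle-rich and 1 of 6 muscle-poor arrays. Diabetic mice made up 4 of 6 and 3 of 6. The diabetic vehicle group was split between the ends, with none of its 5 arrays in the middle.

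**Figure D1:**
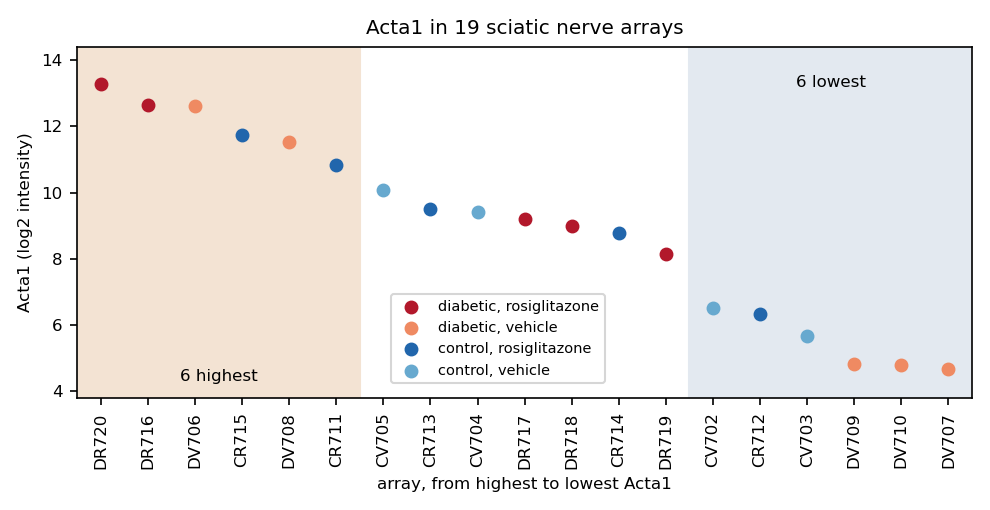
Log2 intensity of Acta1 (vertical axis) in each of the 19 arrays, ordered from highest to lowest and coloured by group, with the 6 highest shaded on the left and the 6 lowest on the right. Values fall steadily to 8.14 in DR719 and then drop to 6.52 in CV702.

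Transcripts of fast muscle fibres separated muscle-rich from muscle-poor arrays most widely, led by myosin heavy chain Myh4, troponin Tnnc2 and the calcium pump Atp2a1. Of 13459 genes compared besides Acta1, 47 (0.349%) were higher by at least 1 log2 unit with no overlap between the arrays of both ends, and 0 (0.0%) were lower by that rule. Of these 47, 34 were members of the muscle lists and 13 were in no list. Several probe sets were present for 19 of the 47, all of the same sign in 18 of them, and the others rested on 1 probe set. Without a minimum size, 59 genes (0.438%) were higher and 35 (0.26%) lower with no overlap. The filter on low values used each gene's mean over all arrays, so high muscle-rich values could carry a gene past it. Muscle-poor medians of Myh4, Mylk4, Neb, Myot and Myoz1 lay below its cutoff, at 4.20, 3.74, 3.89, 3.99 and 4.07. Those of Tnnc2 and Tnnt3, at 6.19 and 8.77, lay above it. With no filter, 64 genes were higher by at least 1 with no overlap and 0 lower. The 47 differences ran from 1.05 to 7.51 with a median of 3.45, against a median of 0.01 over all 13459 genes. Of the 47, 27 met the rule also without the 3 arrays with the highest Gapdh differences, and 16 once the 5 arrays with little sensory neuron RNA were left out. The share of 0.349% describes how many genes the ranking separates and supports nothing further, because Acta1 and its companions were measured on the same arrays.

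The 7 arrays in the middle of the ranking were not part of that comparison. In 46 of the 47 genes their mean lay between the means of both ends, the exception being Mylk2. Over those 7 arrays 36 of the 47 genes correlated positively with Acta1, with a median Pearson r of 0.71. Myh1 and Myhas were not among the 36, at -0.15 and -0.30, and Ryr1 was at 0.02. Neither count was made over all 13459 genes, so no background share is given. Over all 19 arrays r with Acta1 ran from 0.61 to 0.99 in the 47 genes, and from 0.62 to 0.99 after each gene was centred on its mean in each of the 4 groups. These correlations are descriptions over arrays that share a platform and a normalization. The 19 arrays include the 12 by which the 47 genes were chosen, so a high r over them follows largely from that choice. For the 47 genes such r values are no further support. The 10 genes most like Acta1 by r over 19 arrays were Tnnc2 (0.99), Atp2a1 (0.98), Myl1 (0.97), Myh4 (0.96), Mylpf (0.96), Tnni2 (0.94), Myoz1 (0.93), Tcap (0.93), Myot (0.93) and Mybpc2 (0.92), every one of them a gene of the sarcomere or of its calcium supply.

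Among thick filament genes, the fast isoforms differed most. Myh4, the heavy chain of type 2B fibres, ran from 9.27 through 11.95 to 14.00 in muscle-rich arrays and from 4.07 through 4.20 to 5.0 in muscle-poor arrays, a difference of 7.51 (5.91 without the 3 arrays and 5.25 without the 5). Its lowest muscle-rich array, CR711, lay far above the highest muscle-poor array, CV702. Myl1, a fast essential light chain, ran from 10.20 through 11.79 to 13.12 in muscle-rich and from 4.74 through 5.92 to 7.72 in muscle-poor arrays. Mylpf, the fast regulatory light chain, ran from 10.55 through 12.01 to 13.86 and from 6.24 through 6.36 to 6.78. Mybpc2, fast myosin-binding protein C, differed by 5.32, and Ttn, the giant spring titin, by 3.75. Of 18 listed thick filament genes with a probe set of a single symbol, 15 passed the filter on low values and 3 lay below it, and 10 met the rule (5 without the 3 arrays, 4 without the 5). Myh3 and Myh8, the embryonic and perinatal heavy chains, were among those below the filter. Slow-fibre genes were not absent from those that met the rule. Myl3, a slow light chain, met it narrowly, with 5.97 in CR715 against 5.80 in CV702. Mybpc1 met it with 8.17 in CR715 against 7.75 in DV709. Myh7 and Myh2, heavy chains of slow and type 2A fibres, overlapped between the ends.

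Among thin filament genes the fast troponins and nebulin differed most. Tnnc2, fast troponin C and the calcium sensor of the thin filament, ran from 11.71 through 12.97 to 14.11 in muscle-rich arrays and from 5.0 through 6.19 to 7.45 in muscle-poor arrays (difference 6.68, then 5.47 without the 3 arrays and 4.47 without the 5). The fast troponins Tnni2, the inhibitory subunit, and Tnnt3, the tropomyosin-binding subunit, differed by 4.46 and 3.73. Neb, the nebulin ruler of the thin filament, differed by 4.76. Actn2 and Actn3, the alpha-actinins that cross-link actin at the Z disc, differed by 2.93 and 2.92. Actc1, cardiac alpha-actin, and Tnnc1, slow troponin C, overlapped between the ends at 2.09 and 0.50, and Tpm1, Tpm3 and Cfl2, made by many cell types, differed by -0.19, -0.08 and -0.05. Of 16 genes compared of 18 listed, 6 met the rule (5 without the 3 arrays, 4 without the 5), and 2, Lmod2 and Lmod3, lay below the filter. The median difference of the 31 compared contractile genes was 2.60, and 1.30 and 1.08 without the 3 and the 5 arrays.

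**Figure D2:**
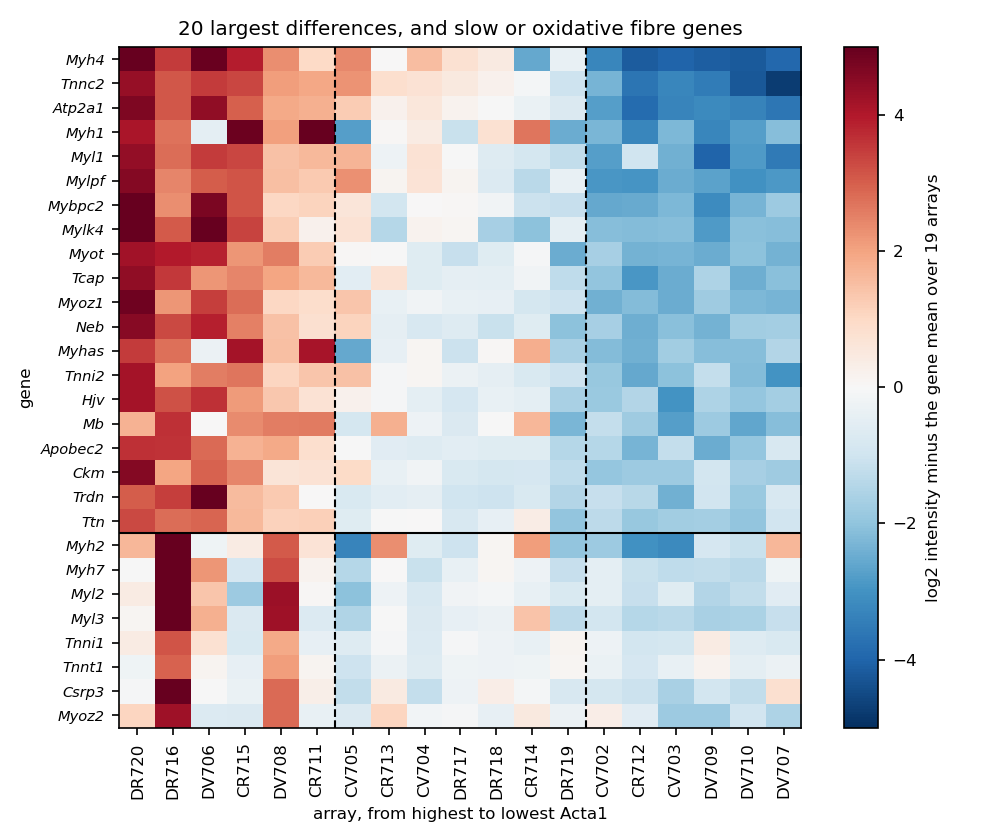
Log2 intensity minus the mean of each gene over 19 arrays (red above, blue below) for the 20 genes with the largest differences and, under the line, slow or oxidative fibre genes; columns are arrays from highest to lowest Acta1, dashed lines bound the 6 highest and 6 lowest. The upper rows broadly fade from left to right, though Myh1, Myhas and Mb dip in DV706, while the lower rows are darkest red in DR716 and DV708.

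Genes of the Z disc, where neighbouring sarcomeres join, and of the link to the membrane formed another group. Myot, myotilin, ran from 7.61 through 9.53 to 10.53 in muscle-rich arrays and from 3.86 through 3.99 to 4.68 in muscle-poor arrays. Tcap, the telethonin cap of titin, differed by 4.94, and Myoz1, a calcineurin-binding Z disc protein of fast fibres, by 4.77. Klhl41, a sarcomere stabilising protein, differed by 3.69. Klhl41 met the rule neither without the 3 arrays nor without the 5, Myot and Tcap only without the 3, and Myoz1 in both. Des, the muscle intermediate filament desmin, ran from 9.30 to 11.23 and from 7.59 to 8.45. Dmd, dystrophin, went the other way at -0.46, with overlapping ranges, and is also expressed as a short form in Schwann cells. Fbxo32, an atrophy-linked ubiquitin ligase, differed by -0.19. Of 17 genes compared of 24 listed, 6 met the rule (4 without the 3 arrays, 1 without the 5). Myoz3 and Klhl40, below the filter, differed by 2.10 and 1.19 with no overlap.

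Calcium release and uptake showed the fast isoforms again. Atp2a1, the fast-fibre calcium pump SERCA1, ran from 10.68 through 11.95 to 13.58 in muscle-rich arrays and from 5.05 through 5.56 to 6.14 in muscle-poor arrays (difference 6.50, then 5.01 without the 3 arrays and 4.13 without the 5). Atp2a2, the pump SERCA2 of slow fibres and of most other cells, ran from 12.64 to 13.01 and from 12.80 to 13.05 and differed by -0.07, a sign shared by 1 probe set of 6. Trdn, triadin, and Ryr1, the calcium release channel, differed by 3.85 and 3.45, and Srl, the reticulum protein sarcalumenin, by 3.19. Ryr1 escaped overlap narrowly, with 9.43 in CR711 against 9.25 in DV707. Ryr1 met the rule neither without the 3 arrays nor without the 5, Trdn only without the 3 and Srl in both. Pvalb, the calcium buffer parvalbumin, which sensory neurons also make, overlapped between the ends, at 11.30 to 13.80 and 8.90 to 11.61. Of 16 genes compared of 21 listed, 7 met the rule (4 without the 3 arrays, 2 without the 5). Cacna1s, the voltage sensor, lay below the filter and differed by 2.05 with no overlap.

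Among energy genes, myoglobin and muscle forms of several enzymes differed most. Mb, the oxygen store myoglobin, ran from 7.54 through 9.99 to 11.17 in muscle-rich arrays and from 4.78 through 5.55 to 6.32 in muscle-poor arrays. Ckm, muscle creatine kinase, ran from 7.59 through 9.15 to 11.51 and from 5.0 through 5.14 to 6.02, a difference of 3.88. Pgam2 and Eno3, the muscle forms of the glycolytic enzymes phosphoglycerate mutase and enolase, differed by 3.68 and 2.56, and Cox6a2, a cytochrome oxidase subunit of striated muscle, by 3.09. Other muscle forms overlapped between the ends, with differences of 1.19 for Pygm, muscle glycogen phosphorylase, 0.37 for Pfkm, muscle phosphofructokinase, and 0.24 for Cox7a1. Gys1, glycogen synthase, and Ldha, lactate dehydrogenase, differed by 0.88 and 0.46, and Tpi1, Aldoa and the carrier Slc25a4, named for the smallest differences of the list, by 0.15, 0.12 and -0.06. Of 20 genes compared of 22 listed, 5 met the rule (5 without the 3 arrays, 3 without the 5). Ckmt2, mitochondrial creatine kinase, and Ampd1, muscle AMP deaminase, lay below the filter on the mean of 19 arrays, and differed by 4.72 and 4.05 with no overlap.

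Of genes of the muscle side of the nerve-muscle junction, 0 met the rule among 6 compared of 11 listed, which is close to the share of 0.349% over all genes. Chrnb1, an acetylcholine receptor subunit, differed by 0.20 and Musk, the receptor kinase that organises the junction, by -0.26. Of muscle transcription factors and satellite cell genes, 0 met it among 8 compared of 16 listed. Their differences ran from -0.51, in Megf10, to 0.24, and 5 of the 8 were positive. Mef2c and Mef2d, transcription factors that many tissues share, differed by 0.24 and 0.13. Below the filter lay the myogenic factors Myf6, Myod1, Myog and Myf5, at 1.31, 1.09, 0.31 and 0.02, the cofactor Vgll2 at 1.28, the satellite cell gene Pax7 at 0.28 and the acetylcholine receptor subunit Chrna1 at 0.83, all with overlap. Smyd1, a muscle methyltransferase also below it, differed by 3.11 with no overlap. The counts of 0 also stood without the 3 and without the 5 arrays.

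Of 24 compared genes for non-muscle isoforms of muscle proteins, 0 met the rule, close to the share of 0.349% over all genes. The median difference was -0.02. Counts of 0 in the heart list and in the lists that follow are close to that share too. Actb, cytoplasmic beta-actin, ran from 13.65 to 13.88 in muscle-rich and from 13.58 to 13.95 in muscle-poor arrays. Heart genes had 0 of 6 compared past the rule and a median of -0.11, and Myh6, Nppa, Gata4 and Nkx2-5 lay below the filter.

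Muscle-rich arrays differed among themselves in fibre type genes. In DR716 and DV708, a pair singled out after the values were seen, several genes known from slow or oxidative fibres, likewise picked after their values were seen, lay above the other 4 muscle-rich arrays. Myh7, the slow heavy chain, was at 12.40 in DR716 and 10.53 in DV708, against 6.43 to 9.49 in the other 4. Myl2, the slow regulatory light chain, was at 13.00 and 11.57 against 5.47 to 8.68, and Myl3, the slow essential light chain, at 12.90 and 10.93 against 5.97 to 8.46. Myh2, the heavy chain of fast oxidative type 2A fibres, was at 11.87 and 9.85 against 6.56 to 8.42. The slow troponins Tnni1, Tnnt1 and Tnnc1 and the Z disc genes Csrp3 and Myoz2 had the same order. With a mean at least 1 above that of the other 4 and no overlap there were 12 of the 98 compared muscle genes, 9 of them among the 31 contractile genes, and 30 of all 13459 genes (0.223%). Other genes of such fibres did not follow, with Mb at 10.08 in DV708 against 10.11 in CR711, and Pln at 5.96 in DV708 against 8.86 in DV706. The fast gene Myh4, at 11.73 and 10.57, overlapped the other 4. DR716 comes from a diabetic mouse given rosiglitazone, with a Gapdh difference of 1.75, and DV708 from a diabetic mouse given vehicle, with 1.09. The beta-actin differences of DR716 and DV708 were 1.70 and 1.29.

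Among muscle-rich arrays, DV706 departed in another way. Its Myh4 value of 13.19 was the second highest of all, while Myh1, the heavy chain of type 2X fibres, was at 5.57 there, against 8.13 to 11.24 in the other 5 muscle-rich arrays. Mb was at 7.54 in DV706, the lowest of the muscle-rich arrays, and Pln, the SERCA inhibitor phospholamban, was at 8.86, the highest. The Gapdh difference of DV706 was 3.71, and its part in these values was not tested. In CR711 the order was opposite, with Myh1 at 11.24 and Myh4 at 9.27, each the highest and lowest of its gene among muscle-rich arrays. Over those 6 arrays r between Myh4 and Myh1 was -0.33, against 0.65 over all 19. High Myh4 with low Myh1 was not confined to DV706. In the middle of the ranking CV705 had Myh4 at 10.64 and Myh1 at 3.33, with a Gapdh difference of 1.37. CR714, also in the middle, had the opposite order, at 5.70 and 8.74.

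**Figure D3:**
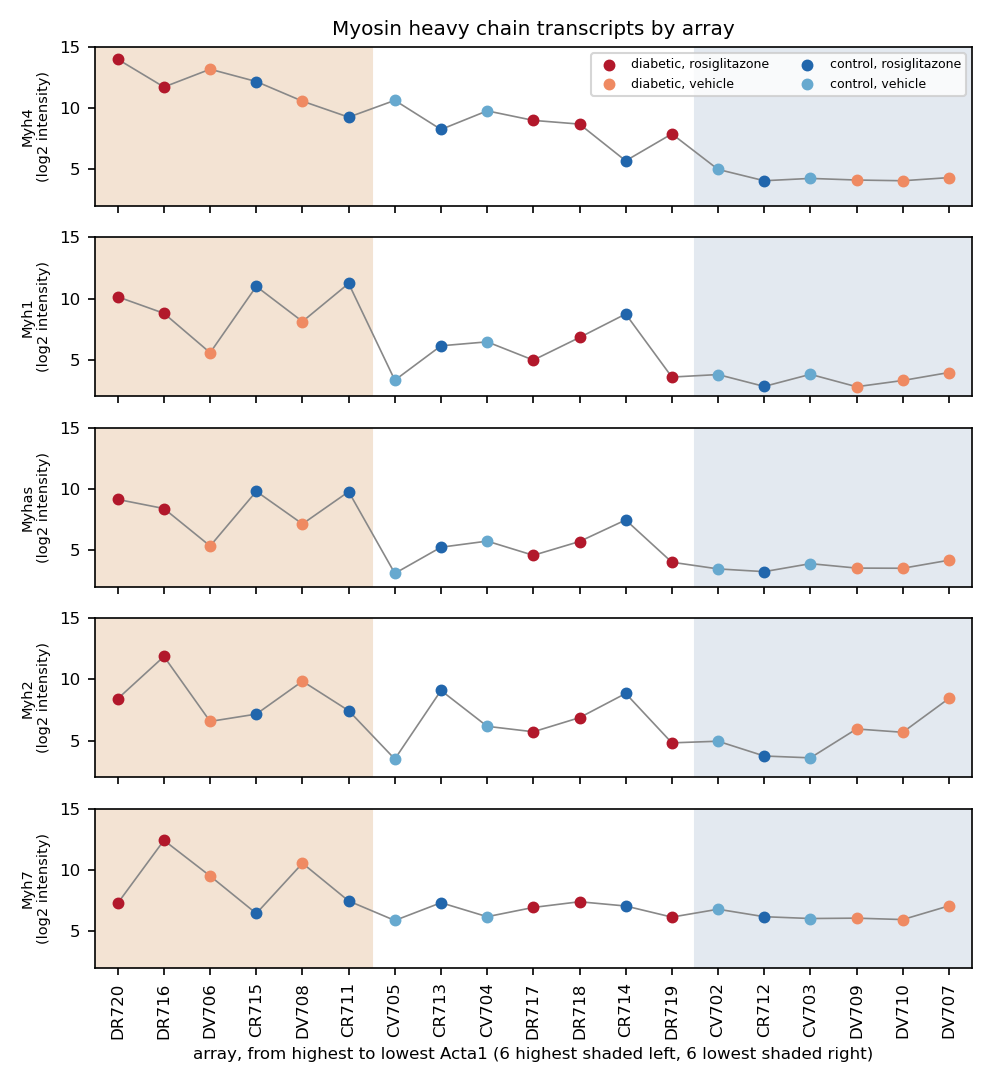
Log2 intensity (vertical axes) of 4 myosin heavy chain genes and Myhas in the 19 arrays from highest to lowest Acta1, coloured by group, with the 6 highest and 6 lowest shaded. Myh4 falls along the ranking, Myh1 dips to 5.57 in DV706 and to 3.33 in CV705, and Myh7 stands out in DR716 and DV708.

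The genes Myh2, Myh1 and Myh4 lie side by side on mouse chromosome 11, at 67171027 to 67197517, 67200102 to 67224577 and 67237812 to 67260447 (GRCm38.p6). Myhas, a long non-coding RNA gene annotated at 67224196 to 67237281, shares 382 bases with Myh1 and ends 530 bases before Myh4. Its probe set followed Myh1 closely, with r of 0.99 over 19 arrays and 0.99 over the 6 muscle-rich arrays, and r of 0.64 with Myh4. However the platform annotation gives the same source record for the Myhas probe set and for 1 of 3 Myh1 probe sets, so both transcripts cannot be told apart here. Heavy chain genes are close in sequence, and cross-hybridization between them was not examined.

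Start regions are shown for Myh4 and Myh1, the neighbours that parted in DV706 and CR711, and for Tnnc2 and Atp2a1, the genes most like Acta1. Each run covers 250 bases before to 50 after an annotated start, 5′ to 3′ on the gene's strand, from RefSeq on GRCm38.p6, with Myh4 at chr11:67237562-67237861 (plus strand), Myh1 at chr11:67199852-67200151 (plus), Tnnc2 at chr2:164779685-164779984 (minus) and Atp2a1 at chr7:126463024-126463323 (minus). Capitals mark matches on either strand to the E-box CANNTG, bound by myogenic factors such as MyoD, to TATAAA, and to the MEF2 and CArG consensus motifs of muscle promoters.
Myh4: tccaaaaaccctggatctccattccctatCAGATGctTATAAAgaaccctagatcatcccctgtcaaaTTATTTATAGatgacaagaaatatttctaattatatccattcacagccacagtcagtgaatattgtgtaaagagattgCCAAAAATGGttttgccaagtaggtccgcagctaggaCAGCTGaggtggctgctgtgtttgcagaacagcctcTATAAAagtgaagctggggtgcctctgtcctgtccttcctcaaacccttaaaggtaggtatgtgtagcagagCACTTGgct
Myh1: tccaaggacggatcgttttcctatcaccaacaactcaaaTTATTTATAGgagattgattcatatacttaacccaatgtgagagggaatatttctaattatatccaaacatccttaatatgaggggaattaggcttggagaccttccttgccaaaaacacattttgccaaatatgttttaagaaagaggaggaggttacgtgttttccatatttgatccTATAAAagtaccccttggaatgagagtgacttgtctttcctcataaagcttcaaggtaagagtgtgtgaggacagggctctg
Tnnc2: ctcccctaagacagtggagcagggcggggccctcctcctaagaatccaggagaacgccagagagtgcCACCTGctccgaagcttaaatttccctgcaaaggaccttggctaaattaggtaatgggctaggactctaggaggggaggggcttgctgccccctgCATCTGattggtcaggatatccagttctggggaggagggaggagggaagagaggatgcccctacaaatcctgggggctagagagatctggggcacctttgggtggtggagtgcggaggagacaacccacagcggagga
Atp2a1: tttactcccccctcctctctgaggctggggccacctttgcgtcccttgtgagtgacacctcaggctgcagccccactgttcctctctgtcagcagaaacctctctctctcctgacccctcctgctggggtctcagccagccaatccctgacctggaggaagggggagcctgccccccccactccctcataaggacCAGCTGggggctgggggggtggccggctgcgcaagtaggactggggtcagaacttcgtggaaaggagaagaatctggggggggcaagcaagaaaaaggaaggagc

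Myh4 had 3 E-boxes, 3 TATAAA matches, 1 MEF2 and 1 CArG match, and Myh1 had 2 TATAAA matches and 1 MEF2 match. In each of both genes 1 TATAAA match, on the opposite strand, lies within the MEF2 match. Tnnc2 had 2 E-boxes and Atp2a1 had 1, with 0 of the other motifs. Of the 47 genes, 31 had 36 start regions in the RefSeq table. An MEF2 match was in 25% of those 36, against 3.19% of all 32851 regions of the same length. The CArG motif was in 8.33% against 1.63%, TATAAA in 22.2% against 13.6%, and the E-box in 83.3% against 72.3%. A match is a description of the letters and not a binding site.

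Genes in no list also met the rule, and all 13 are named here. Mylk4, a myosin light chain kinase family member, ran from 6.10 through 9.11 to 11.02 in muscle-rich arrays and from 3.06 through 3.74 to 3.79 in muscle-poor arrays. Hjv, the iron regulator hemojuvelin, made in liver and skeletal muscle, ran from 7.14 through 9.07 to 10.57 and from 3.45 through 4.63 to 4.95. Mylk4 met the rule neither without the 3 arrays nor without the 5, and Hjv met it in both. Apobec2, a muscle member of the cytidine deaminase family, differed by 4.14. Nmrk2, a muscle kinase of the NAD precursor nicotinamide riboside, differed by 3.08, and Rpl3l, the striated muscle form of a ribosomal protein, by 2.40. Cmya5, Nrap and Synpo2l, proteins of the Z disc or the muscle cytoskeleton, differed by 2.81, 2.08 and 2.03. Art1, an ADP-ribosyltransferase, differed by 2.61, Hspb6, a small heat shock protein, by 2.39, Txlnb, beta-taxilin, by 2.25 and Gadl1 by 1.23. The remaining one was Myhas.

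Fuel genes and targets of PPAR receptors, which the drug could reach through PPAR gamma, had 0 of 24 compared past the rule, close to the share over all genes. Of the 24, 19 lay higher in the mean of muscle-rich arrays, with a median of 0.30. Pparg, which encodes PPAR gamma, differed by 1.01, Fabp3, the muscle fatty acid carrier, by 0.95, Lpl, lipoprotein lipase, by 0.94, Slc2a4, the insulin-responsive glucose carrier, by 0.74, Cpt2, of mitochondrial fatty acid import, by 0.74 and Ucp3, a mitochondrial carrier of muscle, by 0.60. All 6 overlapped between the ends. Without the 3 arrays the differences were 0.84, 0.49, 0.87, 0.73, 0.60 and 0.24 in that order, and without the 5 they were -0.09, 0.13, 0.07, 0.11, 0.21 and -0.09. Over 19 arrays Lpl had r of 0.38 with Acta1 and 0.94 with Adipoq, the gene of the adipocyte hormone adiponectin. Pdk2, a kinase that holds back glucose oxidation, had r of 0.53 and -0.09. Pdk4, its relative, ran from 12.27 to 12.91 in muscle-rich and from 12.12 to 12.89 in muscle-poor arrays. Subunits of oxidative phosphorylation found in all tissues had 0 of 26 compared genes past the rule and a median of 0.11.

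All 12 compared adipocyte genes lay higher in the mean of muscle-rich arrays, with a median of 1.41, but 0 met the rule. Adipoq ran from 11.77 through 12.71 to 13.80 in muscle-rich arrays and from 5.48 through 12.55 to 13.17 in muscle-poor arrays, and the medians differ far less than the lowest values, those of DV706 at 11.77 and DV709 at 5.48. The adipocyte median was 1.47 without the 3 arrays and 0.10 without the 5. By the mean of the list's genes after centring, those 5 include both the lowest array, DV709 at -3.68, and the highest, CR715 at 3.02. CV702, muscle-poor at -2.60, is not among them. Cox8b, a cytochrome oxidase subunit of muscle and brown fat, differed by 2.52 with overlap, and had r of 0.46 with Acta1 and 0.83 with Adipoq. The brown fat list had 0 of 5 compared genes past the rule and a median of -0.01 (0.86 without the 3 arrays, 0.08 without the 5), and its defining gene Ucp1 lay below the filter. The red blood cell list, with 2 genes compared, had 0 and a median of -1.09.

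The level of the sensory neuron list, the mean of its genes after centring, ran from -3.55 through -0.86 to 2.20 in muscle-rich and from -3.51 through 0.64 to 1.77 in muscle-poor arrays. The median difference of its 12 compared genes was -0.33, and turned to 0.49 without the 3 arrays and 0.37 without the 5. That of the myelin list ran from -1.10 through -0.03 to 0.19 and from -0.49 through 0.15 to 0.38. Of its 13 compared genes 1 lay higher in muscle-rich arrays, and the median difference was -0.36 (-0.32 without the 3 arrays, -0.06 without the 5). Mag, a myelin adhesion protein, differed by -0.63, while Mbp, myelin basic protein, was between 13.83 and 14.44 in muscle-rich arrays and between 14.17 and 14.32 in muscle-poor arrays. CR715, muscle-rich, had both the lowest myelin level and the highest adipocyte level, 3.02, of all 19 arrays. Smooth muscle and pericyte genes had 0 of 13 past the rule, with Synpo2, an actin-bundling protein, at 1.66 and Acta2, smooth muscle actin, at 0.07. Of the 13, 9 had a higher mean in muscle-rich arrays, Myh11, Cnn1, Actg2 and Lmod1 among them. The median was 0.09 (-0.01 without the 3 arrays, -0.05 without the 5). Myh11 ran from 7.87 to 11.12 in muscle-rich and from 6.14 to 11.12 in muscle-poor arrays. Endothelial, fibroblast, tendon, perineurium and macrophage lists had 0 genes past the rule and medians between -0.10 and 0.03. Tnmd, the defining tendon gene, lay below the filter. The part of these tissues in the differences was not tested.

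**Figure D4:**
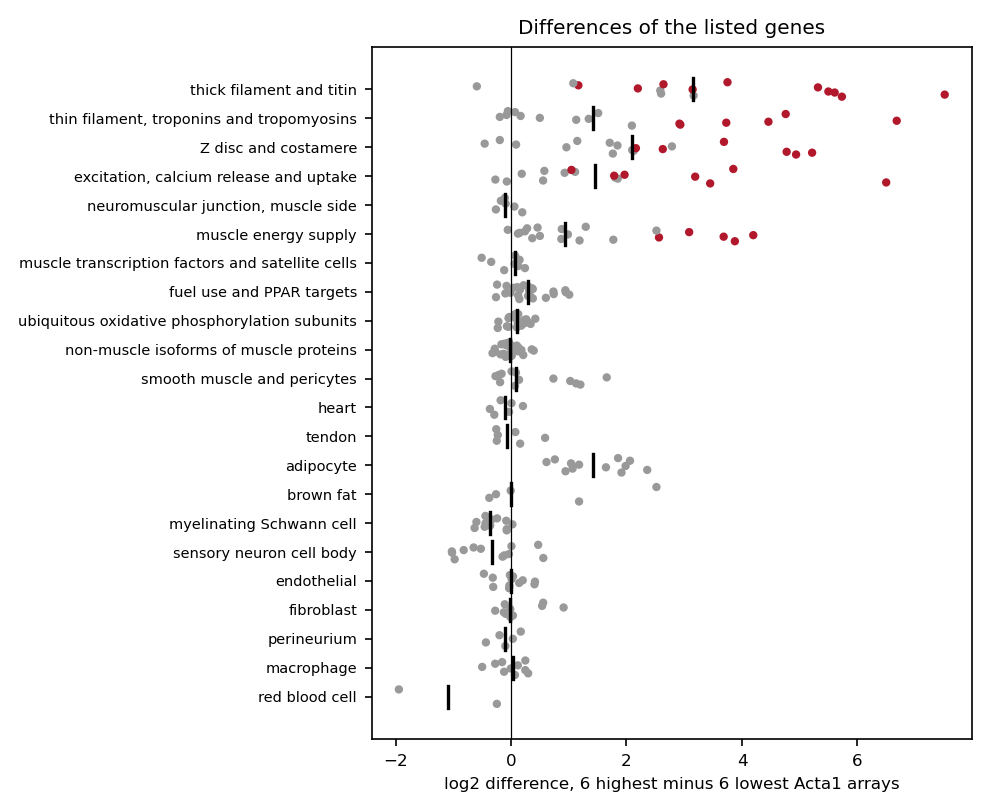
Log2 difference (horizontal axis, 6 highest minus 6 lowest Acta1 arrays) of each compared gene of the 22 lists, 1 point per gene and a black bar at the list's median; red points are genes higher by at least 1 with no overlap. Red points occur in 5 muscle lists, and adipocyte genes lie above 0 without any red point.

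Genes lower in muscle-rich arrays with no overlap were few, and their differences were small. Of all 13459 genes 6884 had a higher mean in muscle-rich arrays, and the lowest difference was -3.03, with overlap. The 35 without overlap differed by -0.11 to -0.85. Zfp608, a zinc finger gene, ran from 8.40 through 8.72 to 9.32 in muscle-rich arrays and from 9.40 through 9.65 to 9.86 in muscle-poor arrays. Cemip2, a cell-surface hyaluronidase, differed by -0.85. The scramblase family genes Plscr2 and Plscr1 differed by -0.80 and -0.74, Ect2, a regulator of cell division, by -0.71 and Il1rap, the accessory chain of the interleukin-1 receptor, by -0.62. Fam199x, Parp4, Gclm, the modifier subunit of glutathione synthesis, and Slc35a5 differed by -0.55, -0.53, -0.52 and -0.49, and for Parp4 only 1 of 2 probe sets had that sign. Without array DV707, 18 genes were lower by at least 1 with no overlap, against 0 with it, and leaving out any other single array of the 12 gave 0 to 3.

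Acta1 did not differ between treatment groups past the threshold in any of 4 comparisons. Acta1 averaged 10.44 ± 2.33 (SD, n = 5) in DR mice, 7.68 ± 4.02 (SD, n = 5) in DV mice, 9.44 ± 2.08 (SD, n = 5) in CR mice and 7.92 ± 2.16 (SD, n = 4) in CV mice. Rosiglitazone differed from vehicle by 2.76 in diabetic mice (two-sided exact permutation p = 0.190, adjusted p = 0.603 over 4 comparisons) and by 1.51 in control mice (exact permutation p = 0.302, adjusted p = 0.603). Diabetic differed from control mice by -0.24 under vehicle (exact permutation p = 0.905, adjusted p = 0.905) and by 1.01 under rosiglitazone (exact permutation p = 0.492, adjusted p = 0.656). The smallest p these designs allow is 0.0079. Arrays of every pair of groups overlapped, and the spread within groups, above 2 log2 units in each, was as large as most of the differences. The comparisons share groups and are not independent.

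**Figure D5:**
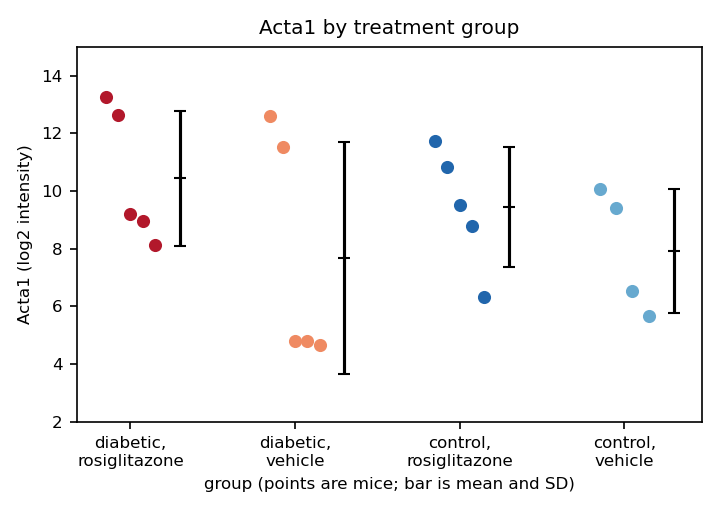
Log2 intensity of Acta1 (vertical axis) by treatment group, with 1 point per mouse and the mean and SD beside the points. The groups overlap, and the 5 diabetic vehicle mice fall at 11.53 or above and at 4.81 or below.

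With limma over 13460 genes, 0 (0.0%) passed an adjusted p of 0.05 in each of the 4 comparisons of treatment groups, so 0 muscle genes did. At an unadjusted limma p under 0.05 were 18.1% of all genes for diabetes under vehicle, 9.7% for rosiglitazone in diabetic mice, 2.83% for rosiglitazone in control mice and 1.29% for diabetes under rosiglitazone. Of the 47 genes, 0, 0, 3 and 0 were at that level in the same order. Again in that order, 43, 46, 47 and 44 of the 47 differences were positive. These signs are no independent evidence, because the genes were chosen by the ends of the ranking, which hold the groups unequally. For rosiglitazone in diabetic mice the median of the 47 was 0.71, against -0.02 over all genes, and Myh4 and Tnnc2 differed by 3.01 (SE 2.01) and 2.80 (SE 1.73), with limma adjusted p of 0.544 and 0.524. With Acta1 as a covariate that median was -0.56. In control mice given rosiglitazone the median of the 47 was 0.75, and 0.01 with the covariate. For diabetes under vehicle it was 0.71, and 0.82 with the covariate. For diabetes under rosiglitazone it was 0.71, and 0.16 with the covariate. A covariate taken from the same family of genes takes up variation they share by construction, so these medians are no test. For diabetes under vehicle, where Acta1 itself differed by -0.24, the median rose. For rosiglitazone in diabetic mice its sign turned.

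In 2 alternatives genes passed in these comparisons. With array weights 20 did for rosiglitazone in control mice, and without DV710 4 did for diabetes under vehicle. Among both sets 0 were in the muscle lists and 0 among the 47 genes.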

How the data were processed

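Affymetrix arrays of sciatic nerve RNA were analysed from the table the authors deposited, whose intensities are linear, with 1 for every probe set on each array. RMA is named, with no version, per the submitters' processing notes; how its log values became linear is unstated. Per the labels, an Ovation kit amplified and labelled the RNA. Scanner files were not used here, and the number of arrays limits the precision. Of 45101 probe sets, 64 controls were left out. Of the rest, 34945 had 1 gene symbol, 932 several and 9160 none listed, and only the first were named. The gene identifiers of 34741 were in the RefSeq gene table, where 0 symbols differed.

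All work used the log2 of these intensities, without an offset. The probe set with the highest mean stood for each of 18193 genes, and those above the 40th percentile of non-control probe sets (5.54) were kept, 13460 with Acta1. Treatment groups were compared with limma 3.58.1 in R 4.3.3 (1 mean per group, eBayes, Benjamini-Hochberg), and Acta1 by exact permutation over 126 or 252 splits in Python 3.11.15. The comparison of both ends and limma were tried on simulated data, and the permutation was not. Members, lists and tests were chosen with earlier results of these data known. Genes named were the 20 highest and 10 lowest differences without overlap, the 10 with the highest r and, of each list, up to 6 members with the largest and 4 with the smallest absolute difference. Other genes named, the fibre type genes and the 13 in no list among them, were chosen after their values were seen. Alternatives varied the number of arrays at each end, the ranking gene, the probe set, the filter, the normalization and the arrays used.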

Additional observations from a re-analysis of the deposited data

Results flagged for a closer look

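Among 204 sets of 4 to 6 values examined, 16 had 1 array far from the others by Dixon's criterion, where chance gives about 1 in 20. In muscle-poor arrays these were Myh4 in CV702 (5.0, against 4.33 and below), Ckm in DV709 (6.02), Mylk4 in DV709 (3.06), Hjv in CV703 (3.45), Plscr1 in DV709 (10.37) and the heart list in CV703 (0.38). In muscle-rich arrays they were Gclm in CR711 (8.53) and the perineurium list in DV706 (-0.60). Among control mice given rosiglitazone, CR715 stood apart in 4 list levels, those of myelin (-1.10), sensory neurons (-3.55), muscle transcription factors and satellite cells (-0.82) and oxidative phosphorylation (0.29). In the other groups the arrays were DR716 for myelin (-0.62), DV709 for adipocytes (-3.68), CV702 for myelin (0.38) and CV705 for the nerve-muscle junction (-0.23).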

How the results depend on the processing

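The count of genes higher in muscle-rich arrays by at least 1 with no overlap, 47, was 79 with 4 arrays at each end and 31 with 7. It was 27 and 16 with the ranking redone without the 3 arrays with high Gapdh differences and without the 5 low in sensory neuron transcripts, and 81 with those 5 removed and none added. The count lower, 0, was 7 with 4 arrays at each end, 16 with the 3 arrays removed and none added and 137 with the 5 removed and none added. Removing arrays without adding any leaves fewer per end, so that fewer values must not overlap. The contractile median, 2.60, was 1.83 when Ckm ranked the arrays, which kept 5 of 6 arrays at each end, 2.15 with no filter and 2.15 with genes centred on group means. It was 1.30 and 1.08 with the ranking redone without the 3 and the 5 arrays, and 1.95 without the 3 with none added. Leaving out each of the 12 arrays in turn gave counts of 46 to 63 higher and 0 to 18 lower and medians of 1.90 to 2.94. Limma counts between treatment groups stayed at 0, except 20 with array weights for rosiglitazone in control mice and a range of 0 to 4 over single arrays left out for diabetes under vehicle (0 to 0 in the others). The Acta1 difference for diabetes under vehicle, -0.24, was 0.60 with Ckm and ran from -1.47 to 0.51 over single arrays left out. For rosiglitazone in diabetic mice it was 0.87 with Ckm (2.76 with Acta1) and ran from 2.01 to 3.99, for rosiglitazone in control mice 0.78 (1.51) and 0.76 to 2.29, and for diabetes under rosiglitazone 0.69 (1.01) and 0.23 to 1.58, none past the threshold. Quantile normalization of the table and centring arrays on their medians moved the median of all genes to 0.02. The removals from the same ends were chosen after seeing the data. The cause of these shifts was not tested. No paired analysis was possible because the groups share no replicate number.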
